A study of Mus musculus with 12 samples.

Results

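The 12 arrays of abdominal fat were placed in order of the amount of control shRNA adenovirus that the mice had received, and each gene was followed along that order. The members were chosen by label alone, as all 12 of the 12 arrays in the series. The control group (NC shRNA, 3 arrays) received 4e9 plaque-forming units of control virus. The LCN13 group (Lipocalin13 shRNA, 3 arrays) received 2e9 units of LCN13 virus with 2e9 of control virus, and the TSC22D4 group (3 arrays) received 2e9 units of TSC22D4 virus with 2e9 of control virus, which gives 6 arrays at 2e9. The combined group (3 arrays) received 2e9 units of each gene-directed virus and 0 of control virus. All animals were 12 weeks old and came from BKS.Cg-Dock7m +/+ Leprdb/J, a mouse line with a Leprdb mutation in the leptin receptor that makes it obese and diabetic. The labels call the genotype of the control arrays WT, although these mice are of the same line. Every animal received 4e9 units of adenovirus in total. An adenovirus carries a gene into cells without entering the genome, and a short hairpin RNA (shRNA) made from it directs the cell to degrade a matching messenger RNA. Tissue was taken 1 week after injection from 3 of the 7 animals in each group, which the submitters called representative, so the choice was not random.

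Control virus fell along this order exactly as gene-directed virus rose, so the amount of control virus and the amount of gene-directed virus cannot be told apart. The 2e9 level also joins mice with different gene-directed viruses. The step from 4e9 to 2e9 is called the first step below and the step from 2e9 to 0 the second step.

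Cells recognise viral nucleic acid with sensors in the cytosol (RIG-I, MDA5 and ZBP1) and in endosomes (Toll-like receptors). These sensors switch on type I interferon genes, and the secreted interferon acts through its receptor and transcription factors such as IRF9 on interferon-stimulated response elements in the promoters of many genes. IRF7 is itself induced by interferon and raises interferon production further. Adenovirus vectors and some hairpin RNAs are known inducers of this system.

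Expression is given as log2 values, on which a difference of 1 is a doubling. Each of the 23185 genes with a symbol was tested with limma, and a call means a two-sided Benjamini-Hochberg adjusted p under 0.05 over all of these genes. At the first step 241 genes were lower (1.04% of those tested) and 44 were higher (0.190%). At the second step 0 genes were lower (0%) and 0 were higher (0%), although 1387 genes had an unadjusted p under 0.05, which is 5.98% of genes. The standard error of a gene is the same at both steps by construction, so a change of equal size has an equal unadjusted p at both. A linear trend over the 3 amounts was called for 62 genes that fell (0.267%) and 15 that rose (0.0647%) as control virus went down. Each step uses the 6 arrays at 2e9, so their errors push the first and second step of a gene in opposite directions.

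Correlations between arrays of 1 group were 0.9936 to 0.9978. Array weights from limma, lower for arrays with more scatter, ran from 0.531 (control replicate 1) to 2.06 (LCN13 replicate 5). Adiponectin (Adipoq, a hormone of fat cells) was between 12.20 and 12.45 on all arrays, and the fat droplet protein perilipin (Plin1) was between 12.60 and 12.80, near the top of a scale that ran from 5.62 to 14.38. The mean of the 7 red blood cell markers measured was highest in the combined group, although 1 of them was not higher at 0 than at 2e9. This mean, relative to the mean of all arrays, was -0.41 to 0.14 at 4e9, -0.31 to 0.16 at 2e9 and 0.26 to 0.36 at 0. Of these markers, the anion exchanger Slc4a1 was 6.32 to 7.24 at 4e9, 6.33 to 7.34 at 2e9 and 7.81 to 8.00 at 0. Results of a fit with this marker mean as a covariate are given beside the second step and the trend. All combined-group arrays lay above all others in this mean. The covariate and the 0 level of control virus can therefore not be fully told apart in that fit. The hairpin targets were not called in any comparison along the order. Tsc22d4 had means of 7.68, 7.67 and 7.61 at 4e9, 2e9 and 0, and Lcn13, listed under the symbol Obp2a, lay between 5.71 and 5.79 on all arrays, near the lower end of the scale.

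Promoters of the 4 genes that fell most at the first step are shown because each holds the letters of the interferon-stimulated response element. They are listed with the 150 bases before the start site, 5′ to 3′ on the strand of the gene, from RefSeq on build GRCm38.p6. Capitals mark matches to GAAANNGAAA, the core of the interferon-stimulated response element, or to its reverse TTTCNNTTTC. The stretches are chr5:120887614-120887763 on the minus strand for Oas1g, chr5:120777660-120777809 on the minus strand for Oas3, chr1:173599273-173599422 on the minus strand for Ifi213 and chr19:34640739-34640888 on the plus strand for Ifit1.
Oas1g: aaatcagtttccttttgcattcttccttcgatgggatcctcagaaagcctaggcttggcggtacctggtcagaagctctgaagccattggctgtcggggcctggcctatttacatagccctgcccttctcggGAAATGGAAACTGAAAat
Oas3: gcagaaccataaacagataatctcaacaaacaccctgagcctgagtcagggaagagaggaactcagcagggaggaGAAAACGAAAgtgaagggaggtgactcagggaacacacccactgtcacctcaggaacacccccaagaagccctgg
Ifi213: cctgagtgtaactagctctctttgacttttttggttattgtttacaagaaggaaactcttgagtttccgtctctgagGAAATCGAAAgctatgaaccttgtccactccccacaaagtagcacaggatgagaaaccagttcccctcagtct
Ifit1: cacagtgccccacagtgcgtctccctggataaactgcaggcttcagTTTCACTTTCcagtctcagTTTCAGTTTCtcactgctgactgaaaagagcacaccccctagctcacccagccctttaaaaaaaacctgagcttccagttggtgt

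The match in Oas1g consists of 2 overlapping copies that begin 18 and 12 bases before the start site. Oas3 has 1 copy 75 bases before it, Ifi213 has 1 copy 73 bases before it, and Ifit1 has 2 copies on the other strand, 104 and 85 bases before it. Windows of 250 bases before to 50 bases after the start were available for 192 of the 241 genes lower at the first step, and 54 of them (28.1%) held the motif on either strand. The motif was in 678 of the 17452 tested genes with a window (3.88%) and in 3.44% of all 32851 windows of the table. Of the genes higher at the first step, 33 had a window and 1 of these held it. Among the 62 genes with a falling trend 12 of 47 with a window held it, and among the 15 with a rising trend 0 of 13. A match is a run of letters and not a shown binding site. The next 6 genes in rank were Usp18, Slfn4, Ifi209, Slfn1, Irf7 and Dhx58. Slfn4, Ifi209, Slfn1 and Irf7 had windows without these letters, and Usp18 and Dhx58 had no window in the table.

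The interferon genes themselves stayed low. All 16 measured members (interferon alpha, beta, gamma, epsilon, kappa and lambda genes) lay between 5.66 and 7.99 on every array, and 12 of them had a mean below the median of all values, 6.31. Their log2 changes ran from -0.09 to 0.10 at the first step and from -0.08 to 0.11 at the second, and 0 of 16 were called at either. At 2e9, 1 of the 16 was called higher in the TSC22D4 than in the LCN13 group. Ifnb1, the first interferon made after infection in most cells, had means of 5.74, 5.73 and 5.73 at 4e9, 2e9 and 0. Values this low carry little information on change.

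Of 21 measured members of the interferon signalling list 4 were lower at the first step (Stat2, Irf7, Irf9 and Usp18) and 0 were higher, with a list median of -0.06 against 0.0025 for all genes tested. The receptor subunits Ifnar1 and Ifnar2 changed by 0.07 and -0.04 at the first step, and neither was called. Irf7, the factor that amplifies the interferon response, was 12.33, 12.69 and 12.55 on the 3 control arrays. At 2e9 its lowest, median and highest values were 9.73, 10.02 and 10.28, and at 0 it was 9.43, 9.25 and 9.15. No level overlapped the next. Its first-step change was -2.52 (SE 0.11, limma adjusted p = 3.28e-06), a 5.72-fold fall, and its second-step change was -0.73 (95% interval -0.98 to -0.48, adjusted p = 0.30), a ratio of 1.66.

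Stat2, which acts with IRF9 at the response element, went from means of 11.00 at 4e9 to 9.36 at 2e9 and 9.16 at 0. Its first step was -1.64 (SE 0.09, adjusted p = 1.26e-05) and its second step -0.20 (adjusted p = 0.85). Irf9, which binds DNA at that element, had 9.76, 9.71 and 9.58 at 4e9, 8.83 to 9.12 with a median of 8.92 at 2e9, and 8.62, 8.73 and 8.53 at 0. Its groups did not overlap at either step. The Irf9 change was -0.73 (SE 0.05, adjusted p = 4.48e-05) at the first step and -0.32 (adjusted p = 0.30) at the second. Usp18, a protease that removes ISG15 and dampens signalling at the receptor, was 11.38, 11.66 and 11.20 at 4e9, 8.07 to 8.68 with a median of 8.53 at 2e9, and 7.92, 7.86 and 7.88 at 0. It fell by 2.95 at the first step (SE 0.13, adjusted p = 3.28e-06), and the second step was -0.58 (adjusted p = 0.55).

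Sensors of viral nucleic acid were lower at the first step for 12 of 24 measured genes, with a list median of -0.49 at the first step and -0.06 at the second. Ddx58 (RIG-I, a sensor of viral RNA ends) was 12.00, 12.24 and 12.04 at 4e9, 10.72 to 10.92 with a median of 10.74 at 2e9, and 10.51, 10.57 and 10.49 at 0. Its first-step change was -1.31 (SE 0.05, adjusted p = 1.94e-06) and its second-step change -0.26 (adjusted p = 0.48), with no overlap at either step. Ifih1 (MDA5, a sensor of long double-stranded RNA) changed by -1.52 and -0.25 at the 2 steps, Dhx58 (LGP2, their regulator) by -2.48 and -0.30, and Zbp1 (a sensor of left-handed nucleic acid) by -2.26 and -0.47. All 3 were called at the first step. Tlr9, the endosomal receptor for unmethylated DNA, changed by -0.98 at the first step (adjusted p = 0.019), a call that was lost without control replicate 2 or 3. The cytosolic DNA sensor Cgas, its partner Sting1 and the RNA sensor adaptor Mavs had first-step changes of -0.11, -0.26 and 0.06, and none of the 3 was called. Sting1 fell as much again at the second step, by a ratio of 1.21 after 1.2 at the first. It was 9.58 to 9.93 at 2e9 and 9.35 to 9.55 at 0, and its second step was not called either.

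The oligoadenylate synthetases, which activate the RNA-degrading enzyme RNase L, had the list median furthest from 0 among the 43 lists. Of 8 measured members 7 were lower at the first step, with list medians of -2.05 and -0.20 at the 2 steps. Oas1g was 9.90, 10.53 and 9.98 at 4e9, 6.32 to 6.86 with a median of 6.46 at 2e9, and 6.31, 6.50 and 6.33 at 0. It was the gene with the largest first-step fall, -3.61 (SE 0.14, adjusted p = 1.94e-06), and its second step was -0.15 (adjusted p = 0.99). Its values at 2e9 and at 0 overlapped and lay close to the median of all values, 6.31, where log2 values are compressed. Oas3 behaved alike, with 9.40, 10.40 and 9.90 at 4e9, 6.33 to 6.52 at 2e9 and 6.28 to 6.38 at 0. Oas2 did not reach the lower end of the scale, with 11.73, 12.01 and 11.64 at 4e9, 9.39 to 10.01 with a median of 9.72 at 2e9, and 9.22, 9.55 and 9.02 at 0. Its steps were -2.05 (SE 0.14, adjusted p = 4.20e-05) and -0.48 (adjusted p = 0.65), and its values at 2e9 and 0 overlapped. Members of this family are similar in sequence and may share probe signal.

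Interferon-stimulated effectors, the genes that block steps of viral growth, were lower at the first step for 28 of 34 measured members, with medians of -1.07 and -0.09 at the 2 steps. Ifit1, which binds viral RNA caps, was 11.87, 11.80 and 11.43 at 4e9, 8.41 to 8.82 with a median of 8.49 at 2e9, and 7.93, 8.24 and 8.02 at 0. It fell 8.74-fold at the first step (-3.13, SE 0.11, adjusted p = 1.5e-06), and the second step was -0.51 (95% interval -0.77 to -0.26, adjusted p = 0.55). Rtp4, a receptor transporter protein induced by interferon, was 10.78, 10.82 and 10.71 at 4e9, 8.37 to 8.71 with a median of 8.62 at 2e9, and 7.75, 7.82 and 7.95 at 0. Its first step was -2.21 (SE 0.09, adjusted p = 1.94e-06) and its second -0.72 (95% interval -0.92 to -0.53, adjusted p = 0.086). Rtp4 was the gene with the smallest unadjusted p at the second step among the falling genes of these lists. Ifitm3, which blocks fusion of viruses with the cell, was 13.56, 13.66 and 13.62 at 4e9, 12.93 to 13.09 at 2e9 and 12.73, 12.92 and 12.80 at 0, in full order although its first step was only -0.60. Xaf1, a promoter of cell death, had means of 12.53, 11.23 and 10.92, and Lgals3bp, a secreted binding partner of galectins, had means of 13.44, 12.63 and 12.39. Both were called at the first step and held that call whichever array was left out.

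**Figure D1:**
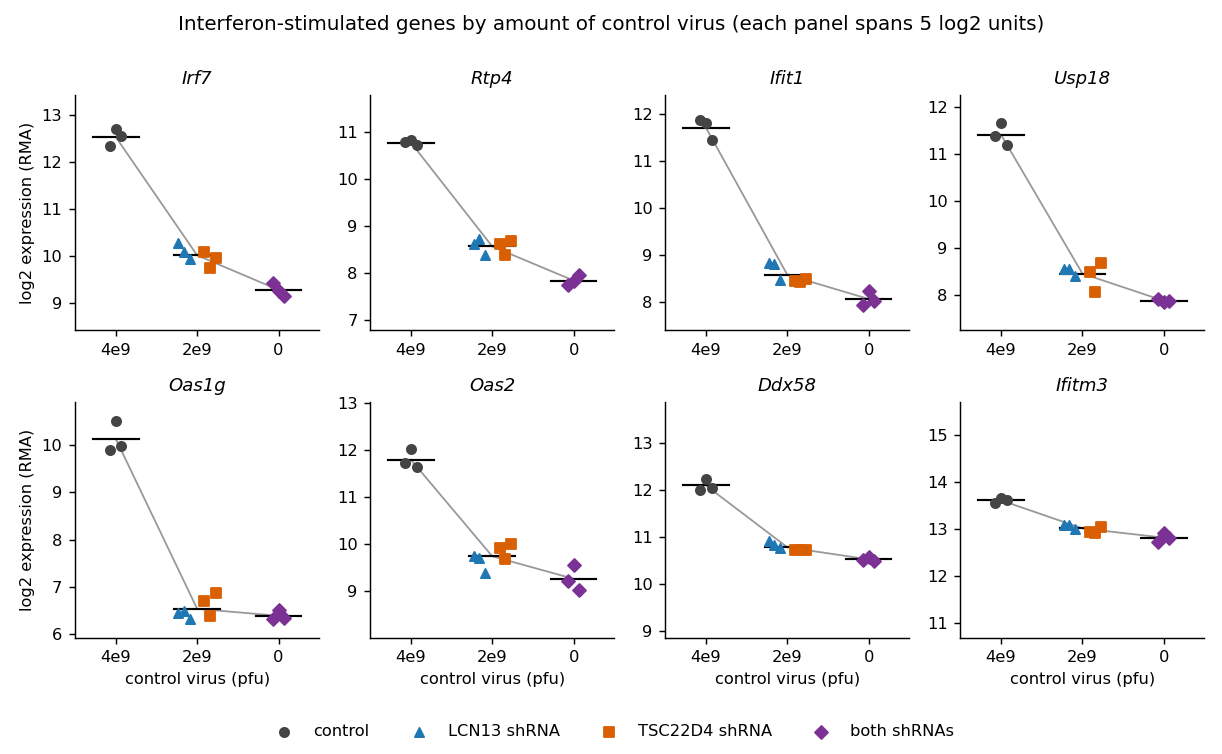
Log2 expression (vertical axis, each panel spanning 5 units) of 8 interferon-stimulated genes on every array against the units of control virus (horizontal axis), with points for single arrays, black bars for the mean at each amount and grey lines joining them. All 6 arrays at 2e9 lie below the 3 control arrays in every panel, and the further drop to 0 is smaller, from 0.15 for Oas1g to 0.73 for Irf7.

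Some genes of antigen presentation and some guanylate-binding GTPases were also lower at the first step. Of 20 measured antigen presentation and immunoproteasome genes 7 were lower, with medians of -0.29 and -0.05. H2-T23, a nonclassical class I molecule, changed by -1.09 (adjusted p = 0.0059) and the peptide transporter Tap1 by -0.69 (adjusted p = 9.11e-04). Of 14 GTPases, which attack the membranes around intracellular pathogens, 5 were lower, with medians of -0.61 and 0.03. Irgm1 had means of 9.08, 7.87 and 7.92 and Ifi47 had means of 10.00, 8.68 and 8.72 at 4e9, 2e9 and 0. Both had the whole of their fall by 2e9, with second steps of 0.05 and 0.04.

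Few markers of immune cells were called with them, although directions leaned in some lists, which was not tested. First-step changes were below 0 in 18 of 21 macrophage markers and 14 of 19 T and NK cell markers. The number was 3 of 14 for B and plasma cell markers and 10808 of 23185 for all genes. Of 21 macrophage markers 1 was called lower at the first step, where 1.04% of all genes were. It was Fcgr1 (the high-affinity receptor for IgG, -1.70, adjusted p = 0.0020), which interferon also induces. Of 19 T and NK cell markers 2 were called lower, the cytotoxic granule protein Gzmb (-0.38) and the NK receptor Klrk1 (-0.31). Both lay below 6.5 on all arrays. The Klrk1 call was lost without control replicate 2 or 3. Of 9 plasmacytoid dendritic cell markers 1 was called lower, Bst2 (-0.92), which is also an interferon-stimulated gene. The mean level of the macrophage list, relative to the mean of all arrays, was 0.03 to 0.31 at 4e9, -0.12 to 0.07 at 2e9 and -0.14 to -0.01 at 0, and its part in the first-step result was not tested. In whole tissue, fewer cells of a type and less RNA per cell cannot be told apart. Of 24 chemokines and inflammatory cytokines 1 was called lower, Cxcl10 (a chemokine for T cells induced by interferon), with means of 8.57, 7.58 and 7.21. Its first-step change was -0.99 (adjusted p = 0.031), a call lost when any of 8 of the 12 arrays was left out.

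The 7 lists of the interferon system and of nucleic acid sensing hold 136 measured genes, 0.587% of those tested. They held 62 of the 241 genes lower at the first step (25.7%). The lists were chosen with earlier results of these data known. This share, and those given below for the trend and the departure, are therefore descriptions. Genes outside the lists included the Schlafen genes Slfn4 (-2.94) and Slfn1 (-2.75), of which Slfn4 varied widely among controls, with 8.03, 10.52 and 8.88. The calls of the 10 genes with the largest falls were lost with 0 of the 12 arrays left out in turn. With a whole group left out, the Slfn4 call was lost without the LCN13 group (limma adjusted p = 0.059) and without the TSC22D4 group (0.068). All 241 genes were lower in both the LCN13 and the TSC22D4 group than in the control group on average. Of them 154 were called in each of these 2 comparisons, which share the control arrays. The 241 genes were chosen by the mean of these 2 groups against the same control arrays, so this agreement largely follows from the choice.

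The 44 genes that rose at the first step changed less, by 0.09 to 0.83. Cd209a, a lectin of dendritic cells and macrophages, rose most, from 6.79, 6.96 and 6.82 at 4e9 to between 7.21 and 8.00 at 2e9, and was 7.52, 7.64 and 7.67 at 0. Its first step was 0.83 (SE 0.10, adjusted p = 0.0034) and its second -0.07 (adjusted p = 0.99), so the combined group lay within the 2e9 range. Srebf1, the regulator of fatty acid synthesis, rose by 0.36 (adjusted p = 0.039), from 9.63 to 9.88 at 4e9 to 9.90 to 10.36 at 2e9. It was the 1 gene called of 19 in the lipogenesis list, whose median was 0.16 at the first step. Des, the muscle filament desmin, rose by 0.33 (SE 0.04, adjusted p = 0.0023), and Podxl, a surface sialomucin of vessels and mesothelium, by 0.40 (adjusted p = 0.013). Gfra2 (a receptor for neurturin, 0.62), Col6a6 (a collagen VI chain, 0.49), Krt222 (0.45), Tatdn1 (0.41), Galnt2 (an enzyme that starts mucin-type glycosylation, 0.33) and Adap1 (0.32) completed the leading 10. The calls of Gfra2, Col6a6, Krt222, Srebf1, Galnt2 and Adap1 were each lost when any of at least 9 of the 12 arrays was left out, whereas those of Cd209a and Des held each time. The call of Podxl was lost without control replicate 2 or 3 and that of Tatdn1 without control replicate 1.

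How much of the total fall was reached with 2e9 of control virus was computed as the first step divided by the difference between 0 and 4e9. The share was 96.0% for Oas1g, 85.9% for Ifit1, 83.6% for Usp18, 77.4% for Irf7, 75.3% for Rtp4 and 69.4% for Irf9. A gene chosen for its first step tends to have a high share for that reason, so the shares are a description. Over the 241 genes lower at the first step the median share was 93.7%, with quartiles of 86.3% and 103%. Their median change was -0.68 at the first step and -0.05 at the second. The 95% interval of the second step lay below 0 in 40 of them, above 0 in 15 and held 0 in 186. Split by their mean over all arrays, the median share was 96.4% in the 81 genes of lowest level, 90.6% in the 80 of middle level and 92.3% in the 80 of highest level.

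**Figure D2:**
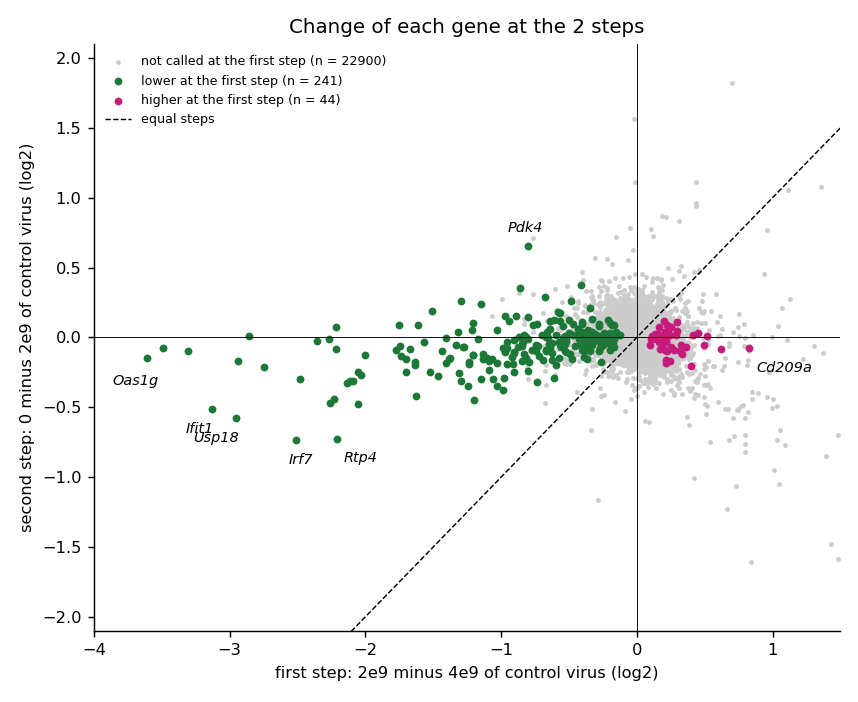
Log2 change of each tested gene at the first step (horizontal axis) and at the second step (vertical axis), with genes lower at the first step in green, genes higher in magenta and the rest in grey. The green genes stretch to -3.61 along the first step and stay near 0 on the second, above the dashed line of equal steps, and 3 immunoglobulin genes lie outside the axes. Both axes use the arrays at 2e9, which tilts the cloud towards opposite signs.

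The genes with the smallest unadjusted p at the second step were Dnajb9, Rab11b, Rtp4, Tmem260 and Irf7, and none passed the threshold. Dnajb9, a chaperone of the endoplasmic reticulum, was 10.85, 10.93 and 10.97 at 4e9, 10.87 to 11.10 with a median of 10.96 at 2e9, and 11.23, 11.29 and 11.22 at 0. The combined group lay above all 9 other arrays, with a second-step change of 0.27 (SE 0.03, adjusted p = 0.086). Of 24 genes of the unfolded protein response, to which Dnajb9 belongs, 0 were called at either step, with medians of 0.009 and 0.05. Rab11b, a small GTPase of membrane recycling, had a second-step change of -0.32 and Tmem260 one of 0.20, each with an adjusted p of 0.086. With red blood cell marker level, which was highest at 0 of control virus, as a covariate the second step of Rtp4 was -0.64 (adjusted p = 0.58). No gene was called at both steps in the same direction, whether lower (0%) or higher (0%). Limited to genes above the median level, Rtp4 passed the second step (adjusted p = 0.042) and was then called at both. Its adjusted p over all alternatives ran from 0.03 to 0.63.

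A strict order of all 12 arrays, with no overlap at either step, was found for 25 genes that fell with control virus (0.108% of genes) and 8 that rose (0.0345%). Rtp4, Irf7, Ifit1, Usp18, Ddx58, Ifih1, Zbp1, Irf9, Lgals9, Ifitm3, Lgals3bp, Xaf1, Ms4a4c, Slfn1 and Slfn4 were among the falling ones, and Kank1, Zfp148, Parg and Tmem184c among the rising ones. Slfn1 was 6.41 to 6.65 at 2e9 and 6.25 to 6.34 at 0, and Slfn4 was 6.11 to 6.34 and 6.00 to 6.08. These values lie near the lower end of the scale, so the order of these 2 genes at the second step is poorly measured. An exact Jonckheere-Terpstra rank test for ordered groups called 0 genes (0%). Its smallest possible p with 3, 6 and 3 arrays is 0.0001082, the 33 genes in strict order had that value, and it corresponded to an adjusted p of 0.076, while 1839 genes had an unadjusted p under 0.05.

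The linear trend gives the change for each 2e9 units less of control virus. It equals the difference between 0 and 4e9 divided by 2, so a gene that fell wholly at the first step can pass it. The largest falls per step were those of Ifit1 (-1.82, adjusted p = 0.033), Usp18 (-1.77), Irf7 (-1.62, adjusted p = 0.019), Rtp4 (-1.47, adjusted p = 0.019), Dhx58 (-1.39), Zbp1 (-1.37), Ms4a4c (a membrane protein of leukocytes, -1.34), Oas2 (-1.27), H2-T24 (-1.23) and Oasl1 (-1.22). Oas1g, with the largest first step, did not pass the trend (-1.88, adjusted p = 0.068). The interferon and sensing lists held 25 of the 62 falling genes (40.3%). Over the 62 genes the median share of the total fall reached at 2e9 was 81.4%, with medians of -0.98 and -0.19 at the 2 steps. Lgals9 (galectin-9, a lectin secreted after interferon) was an example, with means of 12.72, 11.69 and 11.34 and a slope of -0.69 (SE 0.08, adjusted p = 0.019).

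The 15 genes with a rising trend changed by small amounts. Their slopes ran from 0.11 to 0.21 per 2e9 units, their medians were 0.16 at the first step and 0.15 at the second, and the median share reached at 2e9 was 50.7%. The trend test counts any departure from the midpoint as error, so a small change passes it only with nearly equal steps, and these shares follow from the choice of genes. Kank1, a regulator of the actin skeleton, was 8.37, 8.15 and 8.30 at 4e9, 8.40 to 8.51 with a median of 8.45 at 2e9, and 8.73, 8.70 and 8.64 at 0. Its slope was 0.21 (SE 0.03, adjusted p = 0.019). Zfp148, a zinc finger transcription factor, was 9.06, 9.02 and 9.15 at 4e9, 9.17 to 9.32 with a median of 9.28 at 2e9, and 9.45, 9.39 and 9.45 at 0. Its slope was 0.18 (SE 0.02, adjusted p = 0.019). Parg, which removes poly(ADP-ribose) chains from proteins, had means of 7.82, 7.94 and 8.11, and Tmem184c had means of 11.18, 11.48 and 11.59. Pank3 (a kinase of coenzyme A synthesis, 0.17), Purb (0.17), Glce (an enzyme of heparan sulfate, 0.16), Taf2 (a subunit of TFIID, 0.16), Sdc2 (syndecan-2, a heparan sulfate proteoglycan, 0.16) and Dcaf12 (0.15) completed the leading 10.

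The trend calls depended on single arrays. Leaving out 1 array gave between 0 and 65 called genes against 77, with 0 without control replicate 2, without control replicate 3 or without combined-group replicate 13, and 2 without control replicate 1. The count was 6 without LCN13 replicate 5, 8 without TSC22D4 replicate 12, 29 without combined-group replicate 16, 40 without LCN13 replicate 6 and 46 without TSC22D4 replicate 10. With red blood cell marker level as a covariate it was 0. That level was highest in the combined group, so the covariate also takes up part of the order itself. The first-step calls numbered 199 to 345 in the same leave-one-out fits and 283 with the covariate.

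Whether the 2e9 level lay off the midpoint between 4e9 and 0 was tested directly. This contrast has the same size as the interaction of the 2 hairpins divided by 2, with the sign turned, so a bend along the control virus amount and an interaction of the hairpins cannot be told apart. The 2e9 level was below the midpoint for 85 genes (0.367%) and above it for 7 (0.0302%). The interferon and sensing lists held 40 of the 85 (47.1%). The largest departures were those of Oas1g (-1.73, adjusted p = 4.09e-04), Oas3 (-1.71, adjusted p = 9.27e-04), Ifi213 (-1.61), Ifi209 (-1.43), Ifit1 (-1.31) and Slfn1 (-1.27). Oas1g, Oas3, Ifi213 and Slfn1 lay near the lower end of the scale at both 2e9 and 0, where a gene must fall below the midpoint. The size and rank of their departures are therefore not measured. The Ifi200 genes Ifi213 and Ifi209 encode proteins that bind DNA. Irf7 (-0.89, adjusted p = 0.0032) and Rtp4 (-0.74, adjusted p = 0.0027) also lay below the midpoint. Irf9 (-0.21, adjusted p = 0.11) and Ifitm3 (-0.20, adjusted p = 0.083) did not pass.

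A few genes lay above the midpoint at 2e9. Mrto4 (a ribosome assembly factor), Podxl, Rab11b, Des, Plec (the linker plectin) and Eif5a (a translation factor) were the leading genes whose 2e9 level was above the midpoint. Mrto4 was 7.77, 8.00 and 7.97 at 4e9, 8.14 to 8.30 with a median of 8.20 at 2e9, and 7.88, 7.93 and 7.92 at 0, so all 6 arrays at 2e9 lay above the other 6. Its departure was 0.30 (SE 0.05, adjusted p = 0.039), and the call was lost when any of 9 arrays was left out. Rab11b had means of 8.26, 8.40 and 8.08 and a departure of 0.23 (adjusted p = 0.015), lost when any of 4 arrays was left out. The calls of Des, Plec, Eif5a and Podxl were lost with any of 5, 6, 8 and 11 arrays left out. The fall at the second step did not pass for any of the 6, with adjusted p-values of 0.086 for Rab11b, 0.47 for Plec, 0.48 for Mrto4, 0.48 for Eif5a, 0.67 for Podxl and 0.72 for Des.

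Pdk4 and Arrdc3 lay below the midpoint at 2e9 and were chosen after their values were seen. Pdk4, a kinase that shuts off glucose oxidation when fat is burned, was 11.57, 11.19 and 11.38 at 4e9, 10.39 to 10.77 with a median of 10.58 at 2e9, and 11.38, 11.35 and 10.95 at 0. All 6 arrays at 2e9 lay below the other 6. Its first step was -0.80 (SE 0.12, adjusted p = 0.011), its second step was 0.65 (95% interval 0.38 to 0.92, adjusted p = 0.41), and its departure was -0.73 (adjusted p = 0.015). Arrdc3, an arrestin-like protein, had means of 9.70, 9.28 and 9.66, with a first step of -0.41 (adjusted p = 0.013) and a departure of -0.39 (adjusted p = 0.015). The departure calls of both were lost when any of 3 arrays was left out, and the first-step call of Arrdc3 was lost without control replicate 2. Pdk4 was the 1 gene called at the first step of 19 in the insulin signalling list and the 1 of 17 in the glucocorticoid list.

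**Figure D3:**
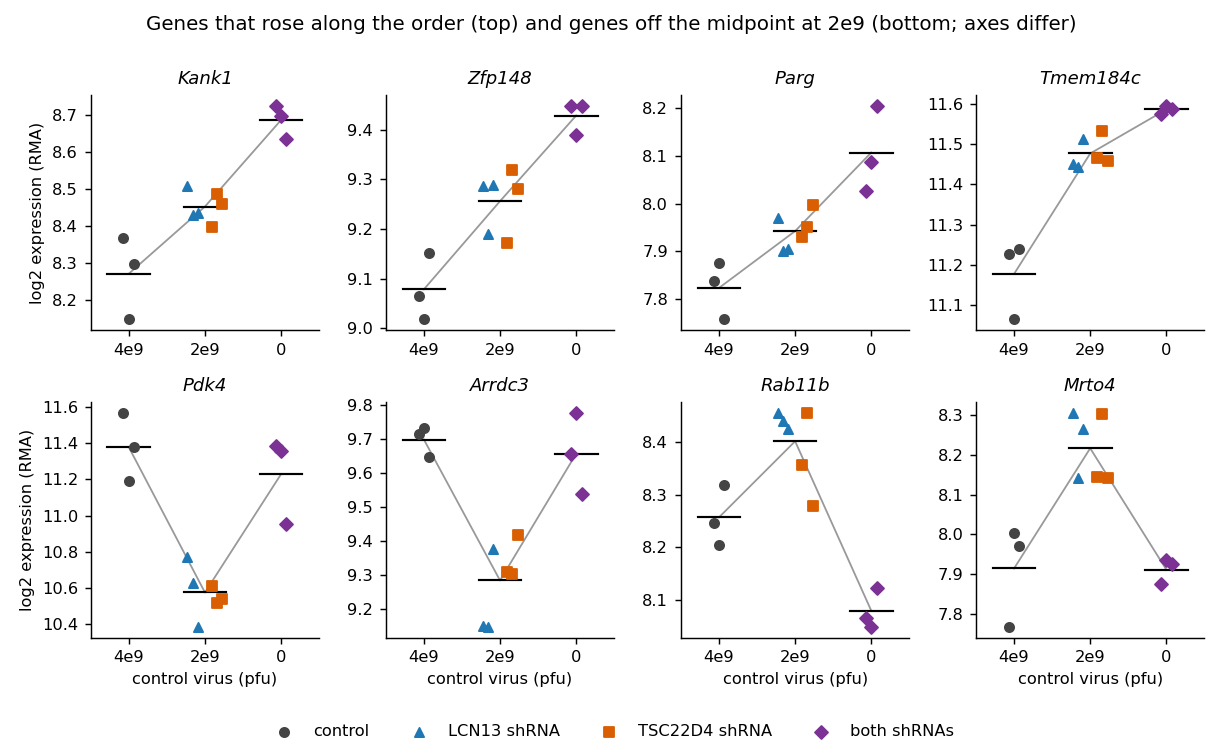
Log2 expression (vertical axes, which differ between panels) on every array against the units of control virus (horizontal axis), with points for arrays and black bars for means at each amount. The top row shows genes that rose along the order, such as Kank1 from a mean of 8.27 to 8.45 and 8.69, and the bottom row genes off the midpoint at 2e9, such as Pdk4 with 11.38, 10.58 and 11.23.

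Both groups at 2e9 received the same amount of control virus, so a difference between them is not one of that amount. The TSC22D4 group was higher than the LCN13 group for 106 genes (0.457%) and lower for 133 (0.574%). Gys2, the liver form of glycogen synthase, was 9.62, 9.75 and 9.71 in the TSC22D4 group and 7.50, 7.71 and 8.66 in the LCN13 group. The difference was 1.74 (SE 0.28, adjusted p = 0.036), whereas its mean was 8.40 at 4e9 and 9.29 at 0. Ncan (neurocan, a matrix proteoglycan, 1.72), C6 (a complement component, 1.37), Cth (an enzyme of cysteine synthesis, 1.24), Nabp1 (a single-stranded DNA-binding protein, 1.21) and Olr1 (the receptor for oxidised LDL, 1.09) were also higher. Gstt1 (-0.83), Camk2n1 (-0.76), Ivns1abp (-0.74), Slc6a9 (a glycine transporter, -0.71), Gsta4 (-0.70) and Map1b (-0.70) were lower, with Gstt1 and Gsta4 encoding glutathione transferases. Their mean at 2e9 lies between the groups. Gstt1, for example, had means of 10.24, 10.25 and 10.22 along the order, with 10.67 in the LCN13 group and 9.84 in the TSC22D4 group.

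Of the 241 genes lower at the first step 9 (3.73%) differed between the groups, against 1.03% of all genes, with 5 lower and 4 higher in the TSC22D4 group. Irf7 differed by -0.17 (adjusted p = 0.52), Rtp4 by -0.01 (adjusted p = 0.97), Ifit1 by -0.25 (adjusted p = 0.36) and Oas1g by 0.23 (adjusted p = 0.50). None of these 4 was called. The GTPase list had a median difference of 0.33, smaller in size than the -0.46 of mesothelial markers and the 0.38 of lipogenesis genes. Lipogenesis levels were 0.12 to 0.20 on the TSC22D4 arrays and -0.17 to 0.02 on the LCN13 arrays, with no overlap. The level of the GTPase list was -0.12 to 0.12 on the TSC22D4 arrays and -0.44 to -0.17 on the LCN13 arrays, also with no overlap. Within it Gbp10 differed by 0.63 (adjusted p = 0.082) and Ifi47 by 0.54 (adjusted p = 0.090), and 0 of 14 members were called. The DNA-binding Ifi209 differed by 0.50 (adjusted p = 0.33). One of the 9 called genes was Samd9l, an interferon-stimulated gene that was named after its values were seen. It was 9.63, 9.62 and 9.62 in the control group, 8.98, 8.97 and 8.97 in the LCN13 group, 8.40, 8.47 and 8.52 in the TSC22D4 group and 8.56, 8.56 and 8.70 in the combined group. Its difference of -0.51 between the TSC22D4 and LCN13 groups (SE 0.04, adjusted p = 0.0048) stands within 1 amount of control virus, and the call held whichever array was left out. LCN13 replicates 5 and 6 also stood apart from replicate 8 in mesothelial markers, whose list level was 0.51 and 0.53 in these against -0.07 in replicate 8 and -0.24 to -0.03 in the TSC22D4 group. Its part in the difference between the groups was not tested. The count of 239 genes fell to 2 without LCN13 replicate 5, to 4 without LCN13 replicate 6, to 4, 6 and 8 without TSC22D4 replicates 10, 11 and 12, and to 73 without combined-group replicate 13, and was 582 without LCN13 replicate 8. It was 6 with red blood cell marker level as a covariate.

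**Figure D4:**
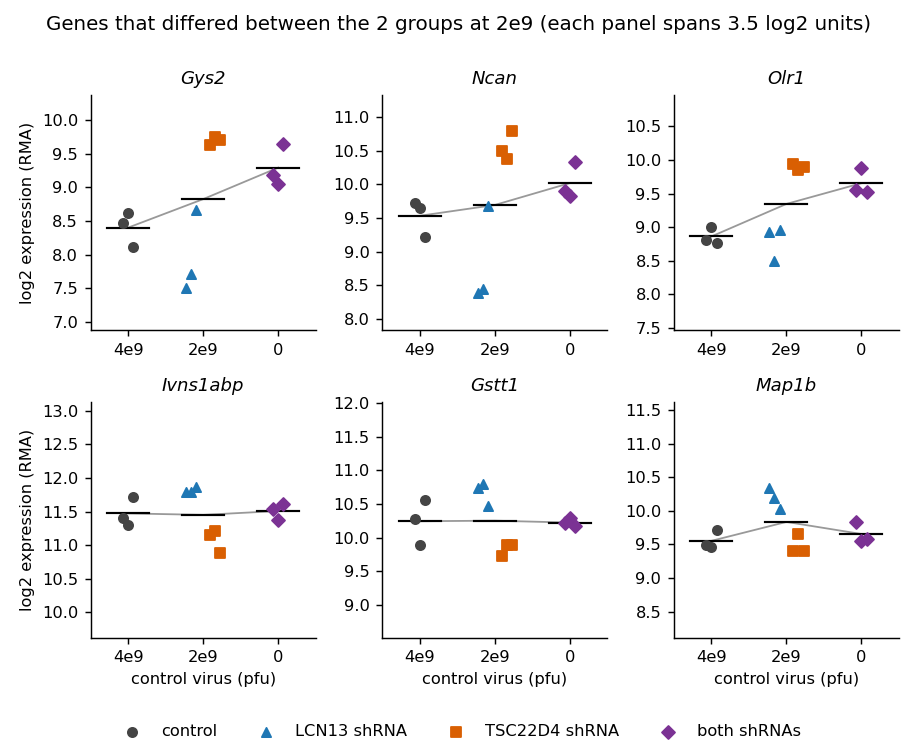
Log2 expression (vertical axis, each panel spanning 3.5 units) of 6 genes that differed between the LCN13 group (triangles) and the TSC22D4 group (squares), both at 2e9, with control arrays at 4e9, combined-group arrays at 0 and black bars for means. In the top row the squares lie above the triangles, with Gys2 at 9.62 to 9.75 against 7.50 to 8.66, and in the bottom row they lie below, although the means along the order are nearly level for Gstt1.

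The same exchange of virus can be read at the first and at the second step without a shared array. Replacing 2e9 units of control virus by TSC22D4 virus is the TSC22D4 group against the control group at the first step, and the combined group against the LCN13 group at the second. The first of these was lower for 204 genes (0.88%) and higher for 68 (0.293%). The 204 genes had a median of -0.76 there and of -0.07 at the second, where 146 (71.6%) were lower against 52.0% of all genes. The 68 genes had medians of 0.35 and 0.13, and 64 were higher at both. At the second exchange 4 of them (5.88%) were lower, against 52.0% of all genes. At the second exchange 1 gene was lower in all (Samd9l, -0.37, 0.00431% of genes) and 1 was higher (Dnajb9, 0.36, 0.00431%). In these, Samd9l went from a mean of 8.98 to 8.61 and Dnajb9 from 10.89 to 11.25.

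Replacing control virus by LCN13 virus is the LCN13 group against the control group at the first step, and the combined group against the TSC22D4 group at the second. The first was lower for 241 genes (1.04%) and higher for 92 (0.397%), and the second for 0 genes either way (0%). The 241 genes had medians of -0.70 and -0.07, and 184 of them (76.3%) were lower at the second exchange against 46.1% of all genes. The 92 genes had medians of 0.27 and 0.07, and 73 were higher at the second. The other 19 (20.7%) were lower there, against 46.1% of all genes. The genes named by these 2 exchanges share the control arrays, and the direction of the second exchange was not tested over the genes.

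Few genes in the lists of fat metabolism and of other cells were called. At the first step 1.04% of all genes were called lower and 0.190% higher, so counts of 0 or 1 in a list are near that share. Directions leaned in some lists, which was not tested. First-step changes were below 0 in 2 of 19 lipogenesis genes, 2 of 13 RNA interference genes and 0 of 15 mesothelial markers. The number was 12 of 16 for fatty acid oxidation genes and 10808 of 23185 for all genes. At list level, not all of these leans were shared by both groups at 2e9. Lipogenesis levels were -0.24 to -0.04 at 4e9, -0.17 to 0.02 in the LCN13 group and 0.12 to 0.20 in the TSC22D4 group. Mesothelial levels were 0.51 and 0.53 in LCN13 replicates 5 and 6 and -0.24 to -0.03 on the other arrays at 2e9. Those of fatty acid oxidation were -0.13 and -0.15 in these replicates and -0.03 to 0.06 on the others. RNA interference levels were 0.01 to 0.03 at 2e9 and -0.10 to -0.01 at 4e9. Of 18 genes of adipocyte identity 0 were called at either step, with medians of 0.04 and -0.006. Of 16 genes of fatty acid oxidation and 38 of oxidative phosphorylation 0 were called, with medians within -0.05 to 0.08 at both steps. In the triglyceride list 1 of 19 genes was lower at the first step, Slc27a1, a fatty acid transport protein, with 11.19, 11.25 and 11.24 at 4e9, 10.76 to 10.91 with a median of 10.88 at 2e9, and 10.81, 10.93 and 10.83 at 0. Its change was -0.37 (SE 0.04, adjusted p = 6.44e-04), and the levels at 2e9 and 0 overlapped. Of 13 RNA interference genes and 7 adenovirus entry receptors 0 were called, with first-step medians of 0.09 and 0.04. Extracellular matrix genes (29 measured) and fibroblast markers (13 measured) had first-step medians of 0.13 and 0.13, with 0 called. In the list of apoptosis and stress 3 of 13 genes were lower at the first step, Casp4 (-0.39, a call lost with any of 7 arrays left out), Mlkl (the executor of necroptosis, -0.72) and Daxx (-0.84), which was named after its value was seen.

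**Figure D5:**
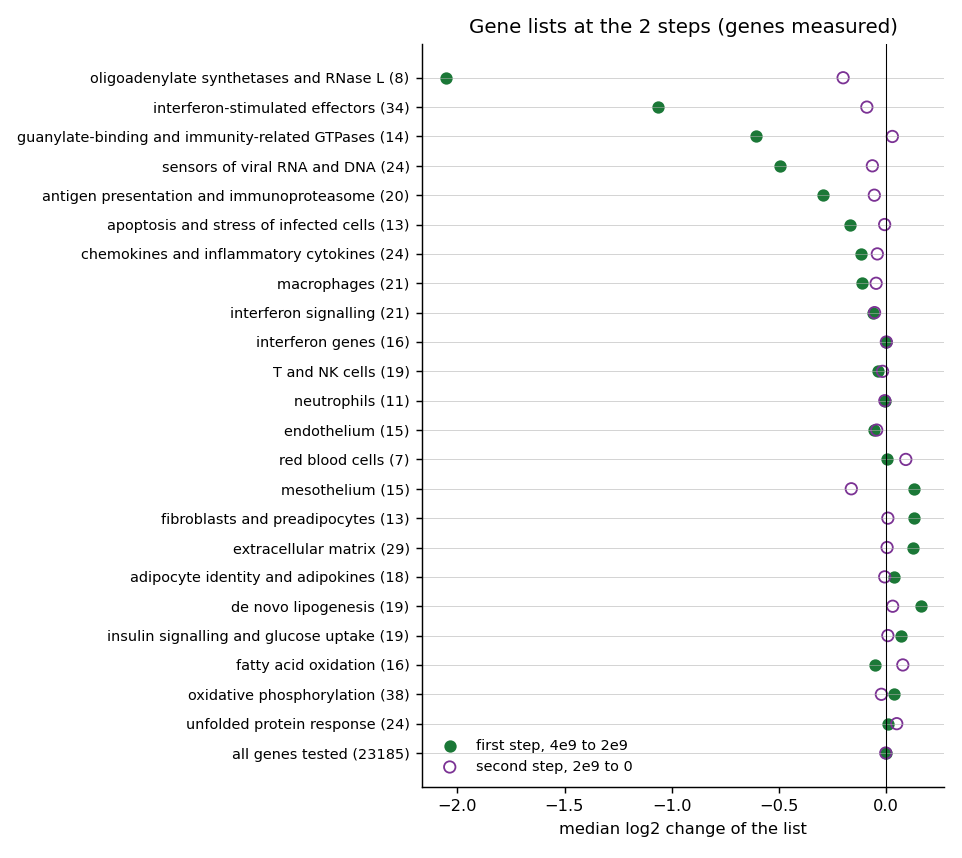
Median log2 change (horizontal axis) of 23 gene lists and of all genes tested at the first step (filled) and the second step (open), with the number of genes measured in brackets. The oligoadenylate synthetase list lies at -2.05 and the effector list at -1.07 for the first step, while all second-step medians lie between -0.20 and 0.09.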

How the data were processed

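RNA of whole abdominal fat was measured on 12 Affymetrix arrays, 1 per mouse. The deposited log2 values were made by the authors with RMA, per the submitters' processing notes. Its version is not given in the sources used here. Sorted arrays differed by at most 0.00188, so all arrays had been brought to 1 distribution, in which a general rise or fall of all genes cannot be seen. Of 25206 probe sets 23185 carried 1 gene symbol, and 2021 carried none and were left out. The number of arrays limits the precision.

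Groups came from the labels. limma 3.58.1 in R 4.3.3 was fitted over all 12 arrays, with a regression on the amount of control virus for the trend and group means for the steps, the departure from the midpoint and the other contrasts. All tests were two-sided, with Benjamini-Hochberg adjustment over all 23185 genes, and the limma analysis was tested on simulated data. P-values measure the spread between mice chosen by the submitters. A list level is the mean over its genes of each array's value minus the gene's mean over all arrays.

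The genes named were, in each direction, the 10 with the largest change past the trend and past the first step, the 6 past the departure and past the difference at 2e9, the 5 with the smallest unadjusted p where none passed, and members of 43 gene lists by the trend's unadjusted p. Other genes were named after their values were seen. The dose order, the lists and the named genes were chosen with earlier results of these data known. Alternatives changed the trend test, the grouping at 2e9, the filter, the variance model, the threshold, a covariate and the arrays included.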

Additional observations from a re-analysis of the deposited data

Results flagged for a closer look

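Among the 6 arrays at 2e9, the level of 4 of the 43 gene lists had 1 array far from the nearest other, a gap that chance gives in about 1 in 20 groups. The gap was 0.858 of the range for the lipocalin family, where TSC22D4 replicate 11 was at 0.67 and the other 5 at -0.13 to -0.01. It was 0.812 for the TSC22 family, with TSC22D4 replicate 11 at 0.09. For glucocorticoid targets it was 0.686 and for the core clock 0.676, with TSC22D4 replicate 10 low at -0.14 and -0.18. None of the 97 named genes checked had such a gap at 2e9.

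At the same amount of control virus, 14 named genes differed between the TSC22D4 and LCN13 groups by limma's test of that difference. The log2 difference was 1.74 for Gys2, 1.72 for Ncan, 1.37 for C6, 1.24 for Cth, 1.21 for Nabp1, 1.09 for Olr1 and 0.51 for Adap1. It was -0.83 for Gstt1, -0.76 for Camk2n1, -0.74 for Ivns1abp, -0.71 for Slc6a9, -0.70 for Gsta4, -0.70 for Map1b and -0.51 for Samd9l. Adap1 was also called at the first step, and its means were 8.47 in the control, 8.53 in the LCN13 and 9.05 in the TSC22D4 group, with all TSC22D4 arrays above all control arrays and the LCN13 arrays overlapping them. All values of the TSC22D4 group lay on 1 side of all values of the LCN13 group in each of these genes.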

How the results depend on the processing

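No paired analysis was possible because the groups share no replicate number. The count of trend genes, 77, was 311 by the contrast of combined and control groups within the fit of 4 groups, 176 among genes above the median level, 117 with array weights, 40 without the TSC22D4 group, and 0 without the LCN13 group, by the exact Jonckheere-Terpstra test, at an adjusted p under 0.01 or with red blood cell marker level as a covariate, which was chosen after seeing the data. It was 0 to 65 with 1 array left out. The first-step count, 285, was 471 with array weights, 164 at an adjusted p under 0.01 and 199 to 345 with 1 array left out. The second-step count, 0, was 3 with array weights and 1 among genes above the median level, over all probe sets or with a robust variance trend. It was 0 to 1 with 1 array left out, and 1 without combined-group replicate 16. The count of genes changed the same way at both steps, 0, was 1 in each of those 4 settings and 0 with any array left out. Departures from the midpoint, 92, numbered 42 without the LCN13 group, 61 without the TSC22D4 group, 42 at an adjusted p under 0.01, and 47 to 104 with 1 array left out. The lower counts were 47 without TSC22D4 replicate 10, 53 without LCN13 replicate 5, 54 without TSC22D4 replicate 11 and 60 without combined-group replicate 13. Differences between the groups at 2e9, 239, numbered 1178 with array weights, 6 with the covariate, 2 at an adjusted p under 0.01, and 2 to 582 with 1 array left out. No result changed direction. Of the values of single genes with 1 array left out in turn, 957 kept their side of the threshold and 399 lost their call, and with the covariate 68 kept it and 45 lost their call. The cause was not tested. Log2 values near the lower end of the scale, as for Oas1g at 2e9 and 0, limit what the second step can show.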
